A study of Mus musculus with 8 samples.

Results

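The 8 genes described here encode the starting steps of the classical complement pathway: the C1q chain genes C1qa, C1qb and C1qc, the protease genes C1ra and C1s1, the substrate genes C4b and C2, and Serping1, which encodes the inhibitor of the C1 proteases. They were taken by gene name from the deposited tables, 8 of 31406 genes in the table of the A2A antagonist and the dual group, and all 8 passed the filter on low counts. They were selected on their values in these libraries, the levels with both ligands against the antagonist and with the antagonist against the control. Their differences between the groups are therefore given as a description, and counts of calls among them stand beside the share of all genes without being read as support.

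RNA was sequenced in 8 libraries from primary cultures labelled microglia, the resident macrophages of the brain, of wild-type (WT) mice. The methods state that the cells came from the striatum of C57/BL6 pups of 2 to 4 days after removal of the meninges, and that after 15 days in culture LPS (lipopolysaccharide, 0.01%) and interferon-γ (0.002%, listed as the human protein) activated them over 48 h. The cultures received ligands at 24, 32 and 40 h. By their titles, 4 libraries (the A2A antagonist group) received LPS, interferon-γ and SCH 58261, a selective antagonist of the adenosine A2A receptor, and 4 (the dual group) received the same and 2-Cl-IB-MECA, a selective agonist of the adenosine A3 receptor, at 200 nM. The treatment label goes against the titles, since 2-Cl-IB-MECA stands there for the libraries with SCH 58261 alone in the title and is missing for those with both, so the direction of every difference between these groups rests on the titles, and the deposited column names give the same grouping. The numbers of replicates in the methods also differ from the 4 libraries per group of the labels, which are used here. For a vehicle control with LPS and interferon-γ only, the authors' group mean alone was used.

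Complement is a cascade of plasma and tissue proteins that marks cells and debris for removal. In the classical pathway C1q binds to its target, the attached proteases C1r and C1s become active, and C1s cuts C4 and C2, whose fragments form the enzyme that cuts C3. In the brain C1q is made mainly by microglia, C4 by several glial and vascular cells, and the pathway is known for the tagging of synapses that microglia remove.

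Each antagonist library held 38427491 to 45878639 counts and each dual library 32630602 to 45544451. Of 14 microglia markers, all 14 were measured, and their summed level was 1267 to 1325 counts per 1000000 counts (CPM) with the antagonist and 1259 to 1306 CPM with both ligands. Among them P2ry12 (1.67 ± 0.216 CPM with the antagonist, SD, n = 4) and Tmem119 (7.41 ± 0.581 CPM), which define resting microglia, were low. Markers of other cells were present too: the 9 astrocyte markers summed to 6256 to 6542 CPM with the antagonist and 6352 to 6799 CPM with both ligands, with Gfap at 1639 ± 60.8 CPM in the A2A antagonist group, and the 6 fibroblast markers to 2379 to 2652 and 2369 to 2986 CPM. Summed levels were 584.6 to 621.5 against 545.5 to 575.3 CPM for 8 oligodendrocyte markers, 49.03 to 60.09 against 50.65 to 62.24 CPM for 5 of 6 endothelial markers, 143.5 to 158.4 against 147.6 to 175.9 CPM for 5 mural markers and 100.9 to 110.2 against 104.1 to 115.5 CPM for 5 neuronal markers. Between the groups only the oligodendrocyte sum had no overlap, and no marker gene of these lists passed the threshold of an adjusted p of 0.05 in edgeR. At an unadjusted p under 0.05, which 12.8% of all genes tested reached in edgeR, there were 4 of 14 microglia, 3 of 9 astrocyte, 3 of 6 fibroblast and 1 of 8 oligodendrocyte markers and none of the endothelial, mural or neuronal ones. DESeq2, which called 4.70% of the genes to which it gave an adjusted p, called 4 of 11 microglia markers (Fcer1g, Fcrls and Aif1 lower and Csf1r higher in the dual group) and Olig1 as lower, and no marker of the other lists.

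C1qa, C1qb and C1qc lie side by side on the minus strand of chromosome 4 in GRCm38 (mm10), at chr4:136895917-136898803, chr4:136880129-136886187 and chr4:136889804-136893065. C1ra (chr6:124512405-124523443, plus strand) and C1s1 (chr6:124530345-124542359, minus strand) are neighbours on chromosome 6. C2 (chr17:34862604-34898265) and C4b (chr17:34728380-34743882) are both on the minus strand of chromosome 17, and Serping1 is at chr2:84765387-84775444 on the minus strand. Promoter sequences of the mouse RefSeq table (GRCm38.p6) matched C1qb, C1qc, C1ra and C1s1, 4 of the 8 genes. Those of C1qb, C1qc and C1s1 are shown, 5′ to 3′ on the strand of the gene and cut at the start of the gene in the deposited table, because the C1q chains had alike differences between the groups and C1s1 a smaller one. They are C1qb at chr4:136886201-136886450 (minus strand, 250 bases), C1qc at chr4:136893066-136893164 (minus strand, 99 bases) and C1s1 at chr6:124542360-124542609 (minus strand, 250 bases). Capitals mark the letters GAGGAA, or TTCCTC on the other strand, a core motif of the myeloid factor PU.1.
C1qb: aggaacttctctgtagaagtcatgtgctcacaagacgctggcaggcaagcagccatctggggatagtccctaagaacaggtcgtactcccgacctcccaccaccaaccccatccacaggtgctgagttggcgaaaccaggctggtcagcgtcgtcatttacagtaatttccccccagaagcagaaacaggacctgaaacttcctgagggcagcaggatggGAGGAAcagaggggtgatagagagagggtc
C1qc: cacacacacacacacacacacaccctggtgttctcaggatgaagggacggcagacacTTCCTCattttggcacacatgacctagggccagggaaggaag
C1s1: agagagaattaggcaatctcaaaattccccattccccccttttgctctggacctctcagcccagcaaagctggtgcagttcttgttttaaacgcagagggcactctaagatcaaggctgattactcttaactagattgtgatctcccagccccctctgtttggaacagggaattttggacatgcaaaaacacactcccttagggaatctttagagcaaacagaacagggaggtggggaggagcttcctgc

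Windows of 250 bases before each listed start were searched on both strands for GAGGAA, for the interferon-γ activated sequence TTCNNNGAA and for an interferon-stimulated response element, a pair of TTTC with 2 free bases between them; matches of different motifs could overlap. GAGGAA was found once before C1qb, at 30 to 25 bases before the start, and once, as TTCCTC, before C1qc, at 193 to 188 bases. These bases are counted from the RefSeq start, which for C1qc lies 151 bases inside the gene of the deposited table, so that the match is 42 to 37 bases before the end of the stretch shown. It was not found before C1ra or C1s1. The stretch of C1ra, which was also lower in all dual libraries, has only 34 bases before the gene and is not shown. Of all 32851 mouse promoter windows of this length, 23.3% hold GAGGAA on either strand, 7.02% hold TTCNNNGAA and 2.98% hold the response element, and neither of the latter motifs was found before the 4 genes. These are matches of letters only, and their relation to the differences between the groups was not tested.

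The 3 genes of C1q, the recognition molecule, were each lower in all 4 dual libraries than in all 4 A2A antagonist libraries. Levels are CPM scaled with TMM factors. C1qa, which encodes the A chain, was measured at 434, 487, 482 and 502 CPM in the A2A antagonist libraries 1 to 4 and at 386, 406, 408 and 412 CPM in the dual libraries 1 to 4. The lowest antagonist library thus stood above the highest dual library, and the mean was 476 ± 29.6 CPM (SD, n = 4) against 403 ± 11.6 CPM (SD, n = 4), a log2 fold change of -0.24 (SE 0.0403) or a change of -15.4%. For C1qb, the B chain, the values were 218, 238, 236 and 243 CPM with the antagonist and 192, 212, 213 and 208.5 CPM with both ligands. The groups did not overlap here either, but were only 4.31 CPM apart at the nearest libraries, and the log2 fold change was -0.18 (SE 0.0407). C1qc, the C chain, stood at 292, 316, 320.2 and 325 CPM in the antagonist libraries and at 268, 286, 286 and 284 CPM in the dual libraries. Its groups were again apart, with a log2 fold change of -0.16 (SE 0.0371). Antagonist library 1 was the lowest of its group and dual library 1 the lowest of its group for all 3 chains. In bulk RNA, fewer cells that make C1q and less C1q RNA per cell cannot be told apart.

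**Figure D1:**
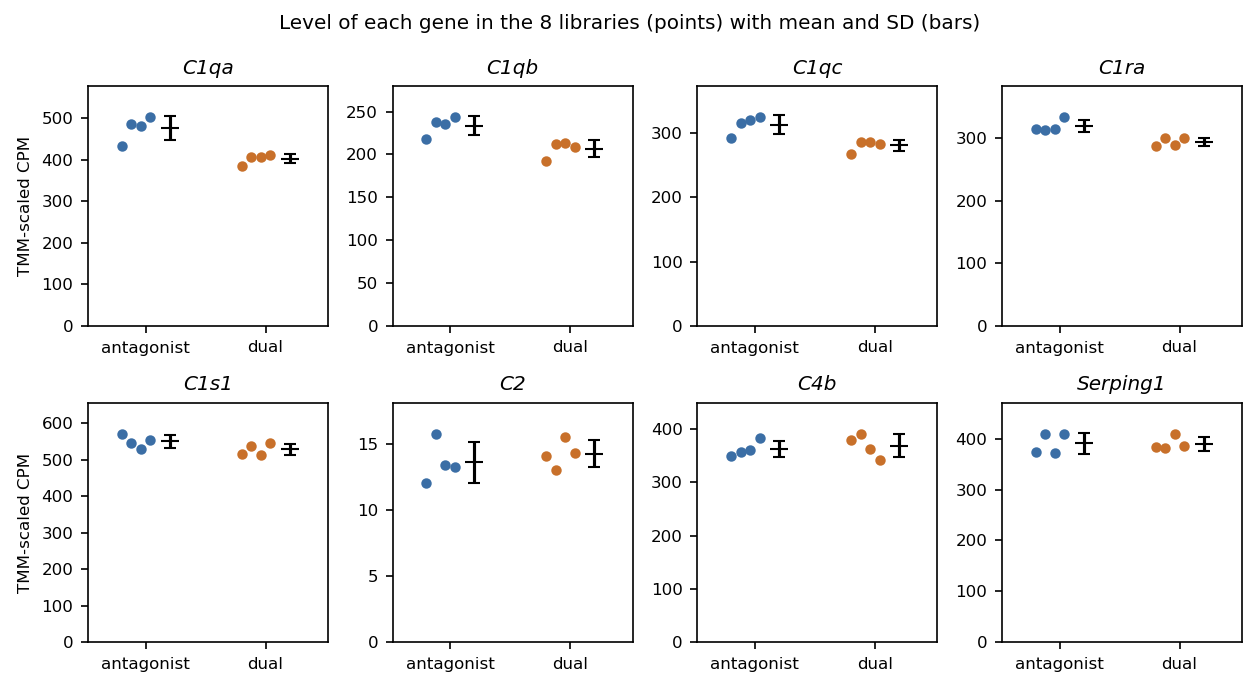
TMM-scaled CPM of each gene (y axis, from 0) in the 4 A2A antagonist libraries (blue) and the 4 dual libraries (orange), one point per library in the order 1 to 4, with the mean and SD of each group in black. The points of the groups are apart for C1qa, C1qb, C1qc and C1ra and overlap for C1s1, C2, C4b and Serping1.

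The chains did not keep one exact proportion. By FPKM, which corrects for gene length, C1qa made up 54.8% ± 0.399 (SD, n = 4) of the summed level of the 3 chains with the antagonist and 53.6% ± 0.439 with both ligands, and the groups did not overlap. C1qb took 25.7% ± 0.203 and 26.3% ± 0.435, with overlap. C1qc took 19.4% ± 0.235 and 20.1% ± 0.103, without overlap. The A chain had the lowest log2 fold change of the 3, from which its lower share with both ligands follows.

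Summed, the 3 chains stood at 1023 ± 55.4 CPM (SD, n = 4) with the antagonist and at 890.3 ± 29.3 CPM with both ligands, a change of -13.0%. The 14 microglia markers changed by -2.38% (1308 ± 27.6 against 1277 ± 20.4 CPM), and their groups overlapped. Divided by the marker sum of its own library, C1q was 0.782 ± 0.0268 with the antagonist and 0.697 ± 0.0222 with both ligands, a change of -10.8%, and the dual libraries (0.668 to 0.720) stayed below the antagonist libraries (0.744 to 0.808). Of the 14 markers, 10 had a log2 fold change below 0 and 4 above, with a median of -0.051. Csf1r, the receptor for colony-stimulating factor 1, was 218 ± 5.47 CPM with the antagonist and 235 ± 8.18 CPM with both ligands, with all dual libraries above, while Fcer1g, an Fc receptor subunit, was 150.3 ± 7.64 and 133 ± 2.64 CPM and Fcrls, an Fc receptor-like gene of microglia, 33.05 ± 0.903 and 26.2 ± 4.57 CPM, both with all dual libraries below. In edgeR the adjusted p was 0.171 for Csf1r, 0.0606 for Fcer1g and 0.0952 for Fcrls.

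**Figure D2:**
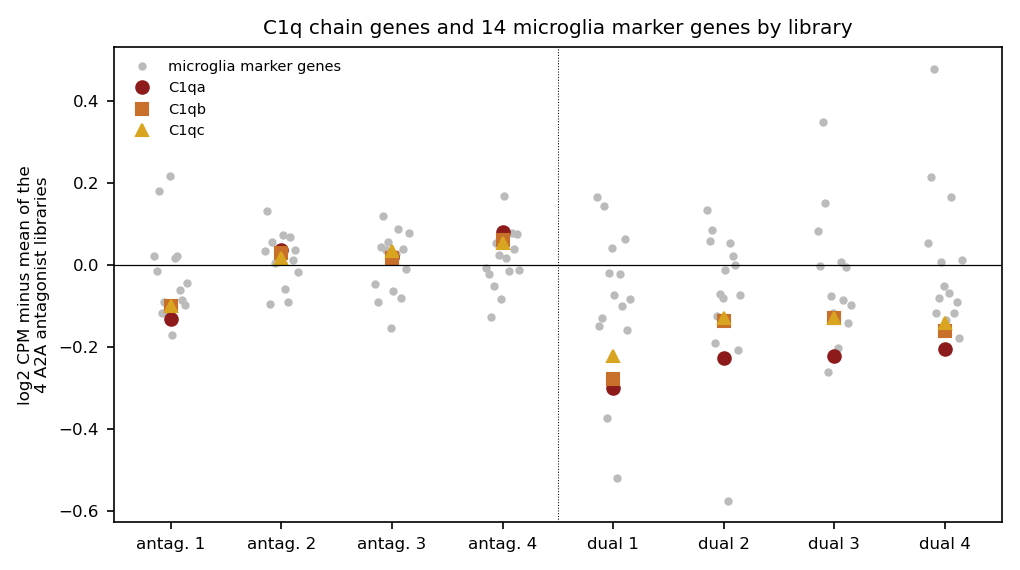
Level of C1qa, C1qb and C1qc (coloured) and of the 14 microglia markers (grey) in each library as log2 CPM minus the mean of the 4 A2A antagonist libraries (y axis). In the 4 dual libraries the 3 chains lie below 0, while the markers lie on both sides of 0.

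The other genes of the complex showed smaller differences. C1ra, a gene of the protease C1r, was at 315, 312, 314 and 333 CPM in the antagonist libraries and at 287, 299, 288 and 299.6 CPM in the dual libraries. These groups were apart as well, with a log2 fold change of -0.12 (SE 0.0326). C1s1, a gene of the protease C1s, was at 571, 545, 529 and 555 CPM with the antagonist and at 516, 538, 513 and 544 CPM with both ligands. The groups overlapped, and the log2 fold change was -0.059 (SE 0.0332).

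The substrates and the inhibitor had overlapping groups. C4b, the gene of C4, was at 349, 356, 360.4 and 383 CPM with the antagonist and at 378, 390.4, 362 and 342 CPM with both ligands, and the dual group held both the highest and the lowest library. Its log2 fold change was 0.024 (SE 0.0407). C2, the serine protease cut by C1s, was at 12.1, 15.8, 13.4 and 13.3 CPM with the antagonist and at 14.2, 13.1, 15.6 and 14.3 CPM with both ligands, with a log2 fold change of 0.067 (SE 0.0793). It had the lowest level and the widest error of the 8 genes. Serping1, which encodes the C1 inhibitor, was at 373, 409, 372 and 408.5 CPM with the antagonist and at 382.5, 381, 409 and 386 CPM with both ligands. The log2 fold change was -0.0033 (SE 0.0386), between means of 390.5 ± 20.9 and 389.6 ± 13.3 CPM (SD, n = 4).

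Over the 8 genes, 6 log2 fold changes were below 0 and 2 above, with a median of -0.088, beside 0.0037 over the 18756 genes tested. All dual libraries were below all antagonist libraries for 4 of the 8 genes, where 4.06% of all genes tested had that order (3.36% had the reverse, which none of the 8 had). In edgeR, 1 of the 8, C1qa, was among the genes called lower at an adjusted p under 0.05, a threshold that 0.160% of the genes tested passed in that direction, 0.0480% in the other and 0.208% in either. Since these are the values by which the genes were proposed, the counts are given as a description. The call of C1qa was absent when antagonist library 2, 3 or 4 or dual library 3 was left out, and DESeq2, where 3.36% of genes were called lower, called C1qa, C1qb, C1qc and C1ra. Nothing in the labels says that the libraries came from separate animals or cultures, so p-values for other genes measure the spread between these libraries only.

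The order of the genes by deposited FPKM was the same in both groups. In the A2A antagonist group C1qa stood first with 455 ± 29.0 FPKM (SD, n = 4), followed by C1qb with 213 ± 10.6, C1s1 with 175 ± 5.23, Serping1 with 167 ± 9.1, C1qc with 161 ± 7.83, C1ra with 106 ± 3.18, C4b with 63.1 ± 2.61 and C2 with 3.499 ± 0.409 FPKM. The libraries of C1s1 and Serping1 overlapped, as did those of Serping1 and C1qc, and the other neighbours in the order did not. In the dual group the levels were 384 ± 11.1 for C1qa, 188 ± 8.97 for C1qb, 167 ± 4.72 for C1s1, 166 ± 6.02 for Serping1, 144 ± 4.42 for C1qc, 97.7 ± 2.08 for C1ra, 64.1 ± 3.6 for C4b and 3.66 ± 0.271 FPKM for C2. There only C1s1 and Serping1 overlapped, and C1qc now lay below every library of Serping1. The level of C2, the least abundant gene, was the only one under 10 FPKM.

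**Figure D3:**
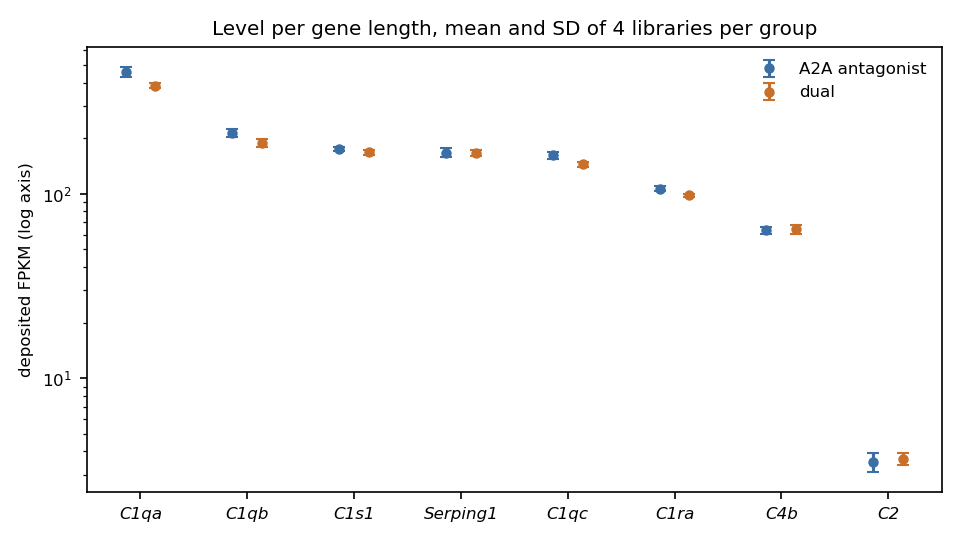
Deposited FPKM (y axis, log scale) of the 8 genes in the A2A antagonist group (blue) and the dual group (orange), mean and SD of 4 libraries each. The genes are in the order of the antagonist group, from C1qa at 455 FPKM to C2 at 3.499 FPKM.

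Several of these counts share sequence with another gene. Of the stretches of 31 bases in the transcripts of C1ra, 59.6% also occur in other genes, 56.9% in its duplicate C1rb. For C1s1 the share was 47.6% (33.5% in C1s2), for C4b 48.3% (all in C4a) and for C2 44.4% (40.2% in Gm20547, which covers 42.8% of the exonic bases of C2 on the same strand). The counts of these 4 genes are uncertain for that reason, and 18.4% of the exonic bases of C1s1 are overlapped by Gm16567 on the other strand. C1qa, C1qb, C1qc and Serping1 shared none.

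Sums over the duplicate pairs do not depend on which gene of a pair a counted read was assigned to. Any reads that matched both genes and were left uncounted are not recovered by them. C1ra and C1rb together gave 349.7 ± 14.7 CPM (SD, n = 4) in the antagonist libraries and 322 ± 6.54 CPM in the dual ones, without overlap. C1s1 and C1s2 gave 600.5 ± 14.4 and 579.5 ± 17.8 CPM, with overlap, and C4b and C4a 364 ± 14.8 and 370.3 ± 21.3 CPM, with overlap. In the antagonist group C1rb held 8.90% of its pair, C1s2 8.43% and C4a 0.564%, so each duplicate was the minor part of its sum as counted.

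Other complement genes were examined from a list of 42, of which 38 were in the table and 30 passed the filter on low counts. In edgeR 0 of the 30 were called, 17 log2 fold changes were above 0 and 13 below, their median was 0.032, and for 0 of them were the groups apart. At an unadjusted p under 0.05 there was 1, and DESeq2 called 0 of the 13 to which it gave an adjusted p. C3, the central component cut by the classical and the alternative pathway, was at 11550 ± 233 CPM (SD, n = 4) in the antagonist libraries and 11840 ± 226 CPM in the dual ones, for a log2 fold change of 0.036 (SE 0.028, adjusted p = 0.64 in edgeR). Cfb, factor B of the alternative pathway, was at 9.07 ± 0.706 and 8.07 ± 0.482 CPM, and Cfp, which stabilises its convertase, at 355 ± 2.6 and 347.5 ± 13.4 CPM. For all 3 genes of this list that were tested, C3, Cfb and Cfp, the groups overlapped.

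Among the regulators, Clu, the chaperone clusterin that blocks the membrane attack complex, was at 3104 ± 126 and 2974 ± 58.4 CPM (adjusted p = 0.442 in edgeR). Cr1l, a membrane regulator of C3 and C4 fragments, was at 48.0 ± 4.37 and 46.4 ± 3.38 CPM.

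The receptor genes that bind C3 fragments on microglia had close means in both groups. Itgam and Itgb2, the subunits of complement receptor 3, were at 125 ± 3.93 against 129 ± 6.59 CPM and at 162 ± 3.21 against 160.3 ± 4.05 CPM. C3ar1, the receptor for C3a, was at 139 ± 5.47 against 137 ± 6.51 CPM. None of the 7 receptor genes tested had groups that were apart.

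The duplicates C1rb, with 31.2 ± 5.28 against 28.1 ± 0.543 CPM, and C1s2, with 50.5 ± 4.92 against 51.7 ± 4.58 CPM, and the related C1rl, with 8.45 ± 0.537 against 8.64 ± 0.828 CPM, were the most abundant of 8 partner genes of the classical and lectin pathways that were tested. Of the terminal components, C5 was at 4.27 ± 0.881 against 3.56 ± 0.803 CPM and C8g at 3.07 ± 0.414 against 3.24 ± 0.399 CPM, while C7 had 27 counts over all 8 libraries and was not tested. For C5 and C8g the groups overlapped.

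**Figure D4:**
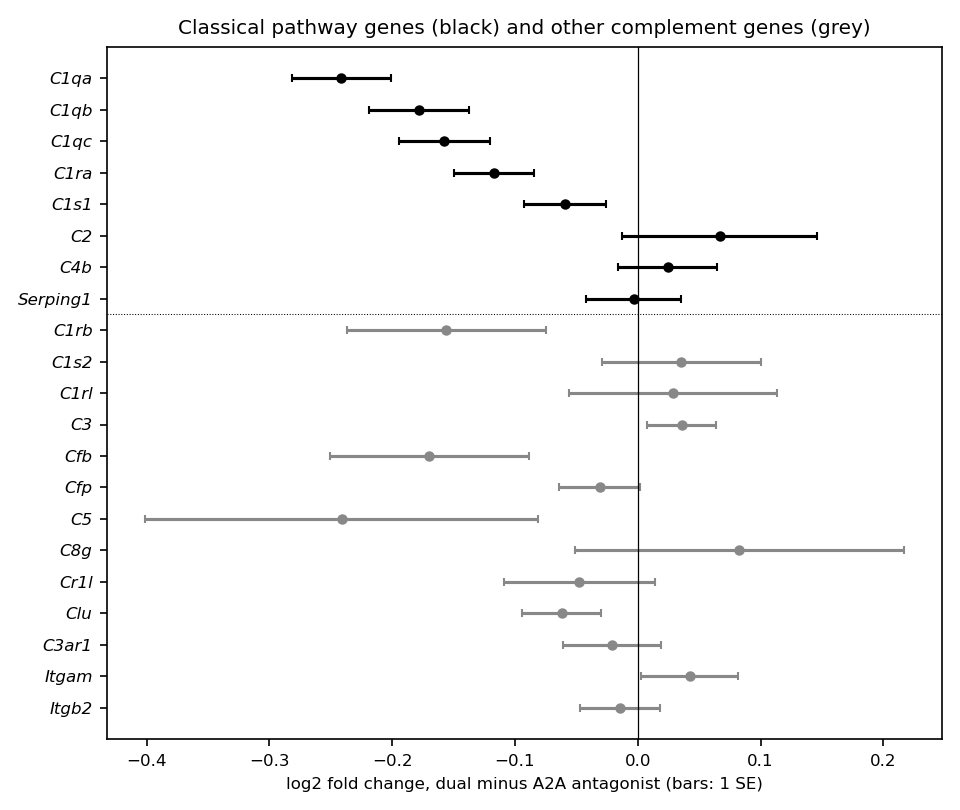
Log2 fold change, dual minus A2A antagonist (x axis, bars of 1 SE) for the 8 classical pathway genes (black) and the other complement genes named in the text that were tested (grey). C1qa, C1qb, C1qc and C1ra lie lowest among the black points, from -0.24 to -0.12, and the error bars of C2, C4b and Serping1 cross 0. The grey points of C5 (-0.24, SE 0.16), Cfb (-0.17, SE 0.0808) and C1rb (-0.16, SE 0.0811) lie in the same range. Of all 30 other complement genes tested, 17 had a log2 fold change above 0.

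A list of 13 genes induced by interferon-γ, the cytokine used for activation, was chosen with earlier results of these data known. Of these, 12 had a log2 fold change below 0, beside 48.4% of all genes tested, with a median of -0.12 over the list. For 8 of the 13 all dual libraries were below all antagonist libraries, an order that 4.06% of all genes tested had. The exception in sign was Ciita, the activator of class II genes, at 0.12 (SE 0.17), and Socs1, a feedback inhibitor, was at -0.019 (SE 0.0614). In edgeR 0 of the 13 were called and 11 had an unadjusted p under 0.05, beside 12.8% of all genes. DESeq2 called 7 of 11 as lower, beside 3.36% of the genes to which it gave an adjusted p. These counts are given as a description. The summed level was 2504 to 2645 CPM with the antagonist and 2305 to 2396 CPM with both ligands. Irf1, a transcription factor of the interferon response, was at 134 ± 4.97 against 119 ± 1.87 CPM (adjusted p = 0.0557 in edgeR). The part of these genes in the level of C1q was not tested.

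The genes whose pattern over the 8 libraries was most like the mean of the 3 C1q chains were sought among 6733 genes whose log2 CPM averaged 5 or more. Likeness was the root mean square difference of centred log2 CPM, whose value for the pattern itself was 0.111 around its mean. The nearest were Rac2, a small GTPase of blood cells (0.0313), Traf1, an adaptor of tumour necrosis factor receptors (0.033), Fbl, the ribosomal RNA methyltransferase fibrillarin (0.0373), Xaf1, an interferon-induced gene (0.0377), and Fcer1g (0.0431). Rac2 had a log2 fold change of -0.15 (SE 0.0452). For C4b, with 0.063 for its own pattern, the genes nearest included Mink1 (0.0202), Slc4a3 (0.0217), Gab2 (0.0225) and Mbd1 (0.0249), with log2 fold changes between 0.0048 and 0.027. The gene most like C4b, the kinase gene Mink1, had a log2 fold change of 0.014 (SE 0.0407). All these genes were picked for likeness over the same 8 libraries, so their log2 fold changes follow from the choice. How near the best of 6733 genes would come by chance was not tested.

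The A2A antagonist was set against the vehicle control by the authors' means of normalised counts. As used here, these means carry no SD or number of libraries and allow no test. Control columns per library are deposited too, but they match no sample of this series and were not used. This comparison uses the same A2A antagonist libraries as the one above, while the control libraries are no sample of this series. In these ratios the antagonist and a difference between experiments cannot be told apart. The C1q chains had the higher mean with the antagonist: C1qa 20540 against 16300, a ratio of 1.26, C1qb 10080 against 8361, a ratio of 1.21, and C1qc 13510 against 11370, a ratio of 1.19. The means of the proteases and of C4 were close: C1ra 13730 against 14030, C1s1 23710 against 22970 and C4b 15600 against 15740. Serping1 had 16840 with the antagonist against 23260 in the control, a ratio of 0.724. C2 had 588 against 994, a ratio of 0.592, and was the only one of the 8 past 1.5-fold in the authors' means.

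**Figure D5:**
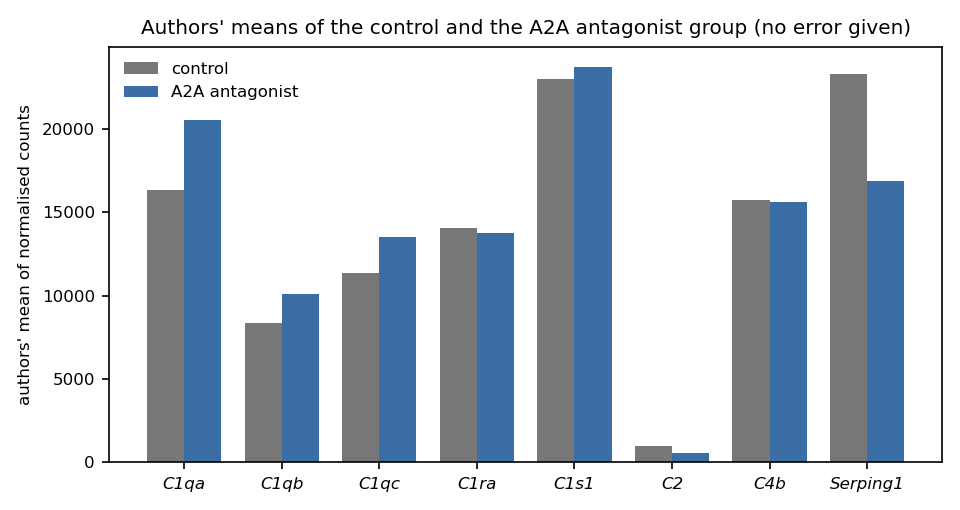
Authors' mean of normalised counts (y axis, from 0) of the 8 genes in the control (grey) and the A2A antagonist group (blue), given without an error. The blue bars are higher for C1qa, C1qb and C1qc and lower for C2 and Serping1.

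Of the 8 genes, 4 had a lower mean with the antagonist than in the control, where 48.0% of 18861 genes with a mean of at least 10 did, and the median log2 ratio was 0.016 beside 0.012 over all of these genes. Past 1.5-fold, 10.9% of all genes were lower and 3.71% higher. Markers of other cells differed between the same means: all 6 fibroblast markers were lower with the antagonist, with a median log2 ratio of -1.79 (Col1a1 16030 against 74280), 8 of 9 astrocyte markers were higher, with a median of 0.26, and 10 of 14 microglia markers were higher, with a median of 0.13. The median was 0.41 for oligodendrocyte markers (7 of 8 higher), -0.58 over the 5 markers of endothelial cells, -0.76 over 3 of mural cells and -0.41 over 4 of neurons, and 0.24 for the genes induced by interferon-γ (11 of 13 higher). The part of these genes in the ratios of C2, Serping1 and the C1q chains was not tested. Among the regulators, 8 of 10 had the lower mean with the antagonist, among them Cfi, the protease that cleaves C4b and C3b, with 1235 against 2788, while Clu had 133800 against 83260. C3 had 497900 with the antagonist against 398500 in the control, a ratio of 1.25.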

How the data were processed

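Groups were taken from the sample titles. By its methods section, reads were mapped by the authors with HISAT2 (Ensembl annotation; build mm10 per the labels) and assigned to genes with featureCounts 1.5.0-p3. Whether strand was used in counting was not given in the sources used here. The deposited values are raw counts per gene, with genes without any count left out, and FPKM computed by the authors from counts and gene lengths. For the control only the authors' group mean of DESeq2-normalised counts, a depth-scaled signal, was used. The 9 per-sample columns that match no sample of this series, those of the control by their names, were not used. Nor were the authors' own fold changes and p-values, which the tables also hold.

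Gene counts of both groups were compared in edgeR 4.0.16 under R 4.3.3 (filterByExpr with a minimum count of 10, TMM factors, quasi-likelihood F test of the dual against the A2A antagonist group, no covariate). P-values are two-sided with Benjamini-Hochberg adjustment over the 18756 genes tested, and genes with an adjusted p under 0.05 are called. The script was tested on simulated data. The 30302 genes held by both tables had 0 differing counts in the A2A antagonist libraries. Pairs of libraries of a group differed by 3.8 to 9.43 times the chi-square of counting noise per degree of freedom. Alternatives were RLE factors, no filter, DESeq2 1.42.0, the replicate number as a block, scaling to microglia marker counts and leaving out each library.

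The members and the lists were chosen with earlier results of these data known. All members are named. Of the other complement genes, those called and up to 3 of each list with the highest mean CPM are named, and of genes like C1q and C4b the 5 nearest, except 2 genes that are not reported here. Gm20547, Gm16567, single markers, Irf1, Col1a1 and Cfi were named after their values were seen.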

Additional observations from a re-analysis of the deposited data

Results flagged for a closer look

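In groups of 4 libraries, 1 library stood apart from the other 3 by the Dixon criterion (its gap to the nearest library, as a share of the range, above the critical value) in 8 of 78 groups examined. Chance gives about 1 in 20 for independent groups. These groups are not independent, since sums and shares hold genes also examined alone, so the count is not read as an excess. Dual library 1 was lowest for C1qc, with 268.1 CPM against 283.6 to 285.9 CPM in the other dual libraries, and for the summed C1q chains, with 846.4 against 903.8 to 906.7 CPM. A2A antagonist library 1 was lowest for the summed microglia markers, with 1267 against 1320.0 to 1325 CPM. A2A antagonist library 4 was highest for C1ra, with 332.7 against 312.3 to 314.7 CPM, for the sum of C1ra and C1rb, with 371.5 against 339.7 to 345.1 CPM, and for C1rl, with 9.24 against 8.06 to 8.24 CPM. In A2A antagonist library 3, C1s2 made up 9.843% of its sum with C1s1, against 7.917% to 8.016% in the other libraries of the group. Dual library 4 was lowest for Cfb, with 7.35 against 8.25 to 8.4 CPM.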

How the results depend on the processing

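The log2 fold changes of the 8 genes moved by less than the spread between libraries (the pooled SD within groups) under all 13 alternatives. Leaving out a library can shift a group mean by only part of that spread. Those alternatives could therefore hardly have passed this limit, and staying within it is no check of the values. The ranges are given as a description. Those of C1qa (-0.28 to -0.21), C1qb (-0.21 to -0.14), C1qc (-0.19 to -0.12), C1ra (-0.13 to -0.083), C1s1 (-0.078 to -0.026) and C2 (0.012 to 0.15) kept their sign. C4b was -0.0056 without dual library 2, and Serping1 had the other sign under 6 of 13 alternatives (-0.031 to 0.032). The median of the 8 genes was between -0.1011 and -0.0542, the latter when scaled to microglia marker counts.

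The number of genes called depended strongly on the choices. It was 39 of 18756 tested in edgeR, 366 of 31406 without the filter on low counts and 417 of 8877 with DESeq2. With the replicate block it was 17 of 18756. When 1 library was left out it was 0 (without A2A antagonist library 4 or dual library 3) to 172 of 19064 (without A2A antagonist library 1). Leaving out A2A antagonist library 2 gave 5 calls and library 3 gave 6. Where 0 genes were called in edgeR, 1802 and 2092 had an unadjusted p under 0.05. Scaled to microglia marker counts, 45 genes were called higher and 20 lower, against 9 and 30 with TMM. Of the 8 genes, 1 was called in edgeR, 3 without the filter, 4 with DESeq2 and 0 to 3 with 1 library left out. The 3 calls with a library left out came without A2A antagonist library 1. These counts stand beside those of all genes above and are not read as support. Of the other complement genes 0 were called, 1 without the filter and 0 whichever library was left out, and their median log2 fold change was 0.0319, and -0.0143 to 0.028 with 1 library left out. It was below 0 without A2A antagonist library 1, dual library 3 or dual library 4. The cause of these changes was not tested.

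Libraries with the same replicate number did not deviate together (correlations of -0.14 to -0.0521), so the numbers are not taken to pair the cultures. Between libraries with different numbers the correlations were -0.0878 to 0.154, and a pairing under other numbers was not tested. With the replicate block, C1qa was the 1 gene of the 8 called and the median of the 8 was -0.088. Shares of the 8 genes recomputed as TPM equalled those by FPKM, which follows from the arithmetic and is no check. Whether deeper counting would narrow the errors was not tested; C7, with 27 counts in all, was below the filter, and 4 of the 8 genes share long stretches of sequence with a duplicate or overlapping gene.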
